A study of Mus musculus with 6 samples.

Results

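The genes described here are 37 nuclear genes for subunits of the oxidative phosphorylation machinery, chosen by gene symbol from a deposited count table of 23337 mouse genes. They comprise 14 genes named as complex I, 4 of complex II, 5 of complex III, Cycs for cytochrome c, 7 of complex IV and 6 of complex V. All 37 were in the table and all 37 passed the filter on low counts. The rule that picks them uses their symbols and not their levels, but it was set with earlier results of these data known.

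Polyadenylated RNA was sequenced from mouse leukemia that the labels call neonatal and the series title calls MLL-rearranged. There were 3 libraries labelled ccl5 and 3 with titles that begin with negative, which are called control here. CCL5 is a chemokine, and the comparison asks how the leukemia's expression differs after treatment with it. The ccl5 group held 1 library from a tertiary transplant (replicate 1) and 2 from a primary transplant (replicates 2 and 3). Control replicate 3 came from a primary transplant, and the labels give no transplant for control replicates 1 and 2. The sources used here do not give the mouse strain, the fusion partner, the recipient or the dose and duration of CCL5. Whether each library stands for its own animal or culture is not in the labels, and p-values therefore measure only the spread between these 6 libraries.

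Oxidative phosphorylation passes electrons from NADH and succinate to oxygen in the inner mitochondrial membrane and stores the energy as a proton gradient. Complexes I, III and IV pump protons, complex II feeds in electrons from succinate without pumping and is also an enzyme of the TCA cycle, cytochrome c shuttles electrons from complex III to complex IV, and complex V (ATP synthase) makes ATP from the gradient. Complexes I, III, IV and V combine nuclear subunits with subunits encoded by mitochondrial DNA, while all 4 subunits of complex II are nuclear. Acute myeloid leukemia stem cells are known to depend on this pathway. The transcription factor NRF1, the ETS factor GABP and the coactivator PGC-1alpha are known to act on many of these nuclear genes. None of the 13 mitochondrially encoded subunits was matched by symbol, and they are not analysed here.

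Summed gene counts were between 13421100 and 18445095 per library, and levels are given as CPM, the usual unit of counts relative to library size, after TMM scaling. The libraries did not sort by their treatment labels. Over all genes, log2 CPM correlated at r 0.993 between ccl5 replicates 1 and 3, at 0.995 between ccl5 replicate 2 and control replicate 3, and at 0.995 between control replicates 1 and 2, against 0.826 to 0.887 for the other 12 pairings. ccl5 replicates 1 and 3 had 0 counts for 4 Y-linked genes, where the other libraries had 5103 to 7777. Whether the treatment label of every library is right could not be checked, so each difference of ccl5 from control below is one between libraries as labelled. The leukemia and hematopoietic genes Ptprc, Hoxa9 and Meis1 were present in every library, with a summed level of 687 to 886 CPM across ccl5 libraries, against 759 to 868 CPM across controls. Most of that sum was Ptprc. Hoxa9 alone measured 81.9 to 101 CPM in ccl5 and 108 to 192 CPM in control libraries, without overlap (adjusted p 0.365). Meis1 measured 24.9, 62.9 and 21.2 CPM across ccl5 replicates 1 to 3, against 35.6, 34.4 and 63.15 CPM across control replicates 1 to 3. Its groups overlapped, and ccl5 replicate 2 and control replicate 3 were its highest libraries. Markers of T, B, NK and erythroid cells reached at most 17 counts for any gene, with 3 of 4 erythroid and 1 of 2 NK markers at 0 throughout. Other markers moved with these pairings. The 6 macrophage genes summed to 3320, 572 and 3310 CPM across ccl5 replicates 1 to 3, against 775, 840.1 and 586 CPM across control replicates 1 to 3. They did not share 1 layout: C1qb measured 130.2, 69.7 and 110.2 CPM against 1.27, 1.07 and 67.5 CPM. For C1qb, and for C1qa at lower levels, control replicates 1 and 2 were thus the lowest libraries. The 5 neutrophil granule genes found, of 6 listed, summed to 31.7, 10110 and 18.2 CPM against 263, 264 and 9650 CPM, and the 8 genes of dividing cells to 209, 1935 and 141 CPM against 715, 759.7 and 1855 CPM. The 2 megakaryocyte genes summed to 30.5, 5.99 and 28.0 CPM against 3.81, 4.37 and 9.35 CPM. The 4 genes of endothelium and stroma, mostly Pecam1, summed to 35.0, 85.8 and 26.9 CPM against 83.0, 95.0 and 88.5 CPM, so that ccl5 replicates 1 and 3 stood apart in both lists. None of these marker genes was at 0 in all libraries. The part of these differences in the subunit levels below was not tested, and in bulk RNA fewer cells of a type and less RNA per cell cannot be told apart.

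The promoters of these genes are where NRF1 and ETS factors are known to act, so sequences upstream of the transcription start were searched for both motifs on both strands. The windows were the 250 bases before the start of each gene in RefSeq (GRCm38.p6, the assembly also called mm10), found for 27 of the 37 genes (26 by symbol and Atp5f1 by an older name). The NRF1 motif, GCGCANGCG or its reverse complement CGCNTGCGC with N any base, stood in 5 of these 27 windows (18.5%), beside 5.16% of 32851 such windows in the table. The ETS motif, CCGGAAGT or its reverse complement ACTTCCGG, stood in 0 of the 27, beside 2.88% of all windows. Of the 9 matches, 6 are shown with up to 10 flanking bases, at least 1 for each of the 5 genes, because they are the letters shared by members of several complexes. Each is written 5′ to 3′ on the gene's strand, which is the minus strand for all 5 genes, with the motif in capitals:
Cycs, chr6:50566612-50566640: catgctagctCGCATGCGCgcgcacaaac
Cox6a1, chr5:115349057-115349085: cggataaagtGCGCAGGCGctggagttcc
Sdhd, chr9:50603910-50603938: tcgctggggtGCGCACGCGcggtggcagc
Sdha, chr13:74350277-74350305: ggggcgtgttGCGCAGGCGcagaatcttc
Sdha, chr13:74350320-74350348: cgtttacaggGCGCAGGCGcaccaccact
Ndufs6, chr13:73328483-73328507: gactgctgtgCGCCTGCGCcggcac

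The first motif base lies 61 bases before the start in Cycs, 79 in Sdhd and 15 in Ndufs6. Sdha holds 3 matches, at 98, 55 and 10 bases, and Cox6a1 holds 3, of which those at 162 and 161 bases overlap and read on both strands. Of the 250 bases of the Ndufs6 window 138 lie in annotated exons, and its motif is among them. Annotated exons cover 140 bases of the Sdha window, 130 of that of Sdhd, 177 of that of Cycs and 54 of that of Cox6a1. The longest exon-free stretches of the Sdha and Sdhd windows hold no match. For Cycs and Cox6a1 the motif stands in sequence free of annotated exons, so the longer stretch is shown, with every match in capitals:
Cycs, chr6:50566570-50566642, minus strand: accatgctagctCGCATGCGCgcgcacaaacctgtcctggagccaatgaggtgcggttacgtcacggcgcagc
Cox6a1, chr5:115348982-115349129, minus strand: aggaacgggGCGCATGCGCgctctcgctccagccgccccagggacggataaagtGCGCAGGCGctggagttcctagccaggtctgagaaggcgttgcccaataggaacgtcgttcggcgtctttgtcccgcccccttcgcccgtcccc

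A match is a description of the letters, not a binding site. The 5 genes with the motif did not share a direction: the log2 fold change of ccl5 over control was -0.50 for Cycs, -0.27 for Ndufs6 and -0.10 for Sdhd, and 0.23 for Sdha and 0.19 for Cox6a1. Nrf1 itself, the gene of the factor, measured 33.5, 41.0 and 34.8 CPM across ccl5 replicates 1 to 3, against 23.5, 23.7 and 41.2 CPM across control replicates 1 to 3. Its groups overlapped because control replicate 3 lay above all ccl5 libraries.

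Every subunit gene was well expressed. The fewest counts of any member in any library were 436, for Ndufab1, and mean levels ran from 39.4 CPM for Ndufab1 to 549 CPM for Atp5b. Levels between genes are compared per kilobase of exon, since longer transcripts give more reads. On that scale the members spanned 19.7-fold, from 28.6 CPM per kilobase for Ndufs1, the largest iron-sulfur subunit of the NADH-oxidizing arm of complex I, to 565 for Cox4i1, a nuclear subunit of cytochrome c oxidase. The median over the 7 complex IV genes was 341 CPM per kilobase. It was 184 for complex V, 119 for complex I, 103 for complex II, 88.3 for complex III and 85.6 for Cycs alone. The members with the highest level per kilobase were Ndufa4 at 294 among those named as complex I, Sdhd at 134 in complex II, Uqcrq at 307 in complex III, Cox4i1 in complex IV and Atp5b at 292 in complex V. Ndufa4 is named for complex I and has since been assigned to complex IV, and it is counted by its name here.

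**Figure D1:**
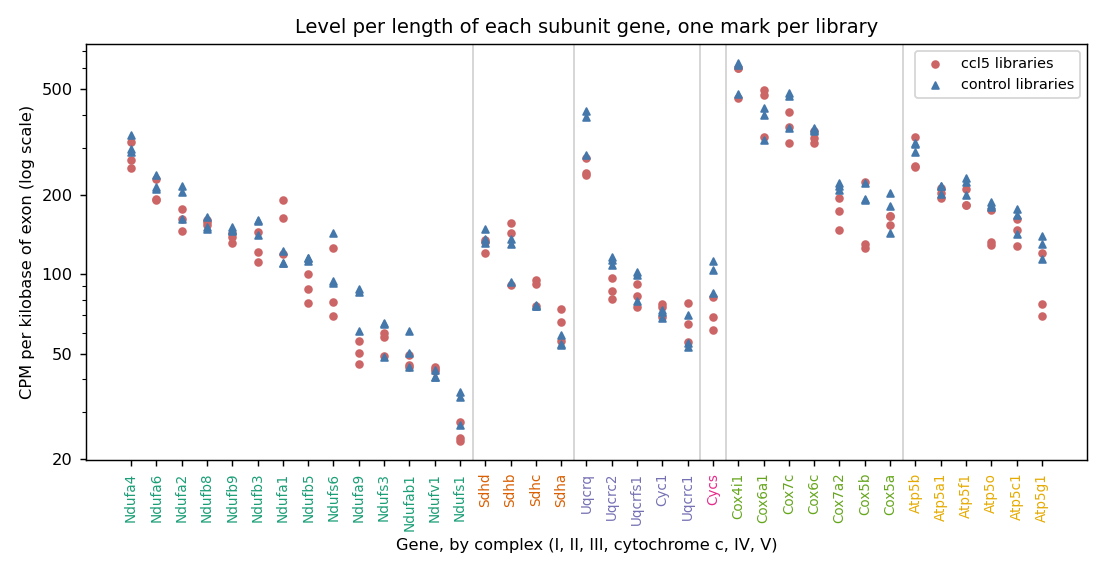
Level of each of the 37 genes as CPM per kilobase of exon (y axis, log scale), by complex and, within a complex, from the highest to the lowest mean. Circles are the 3 ccl5 and triangles the 3 control libraries; the complex IV median is the highest at 341, with Cox4i1 at a mean of 565, and Ndufs1 lies lowest at 28.6.

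Between libraries the subunit genes varied little. The coefficient of variation over the 6 libraries had a median of 13.1% among members, beside 29.1% over the 12174 genes tested, which include genes with far fewer counts. The steadiest members were Ndufv1 (3.7%), which binds NADH and FMN, Ndufb8 (3.84%), an accessory subunit, and Atp5a1 (4.36%), the alpha subunit of ATP synthase. The most variable were Ndufs6 (28.0%), Ndufa9 (27.9%) and Atp5g1 (26.4%). The members followed the pairing of the libraries: their median absolute log2 ratio was 0.13 between ccl5 replicates 1 and 3, 0.08 between ccl5 replicate 2 and control replicate 3 and 0.05 between control replicates 1 and 2, and 0.18 to 0.30 for the other pairings. Control replicate 2 was the highest library for 16 members and ccl5 replicate 1 the lowest for 13.

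**Figure D2:**
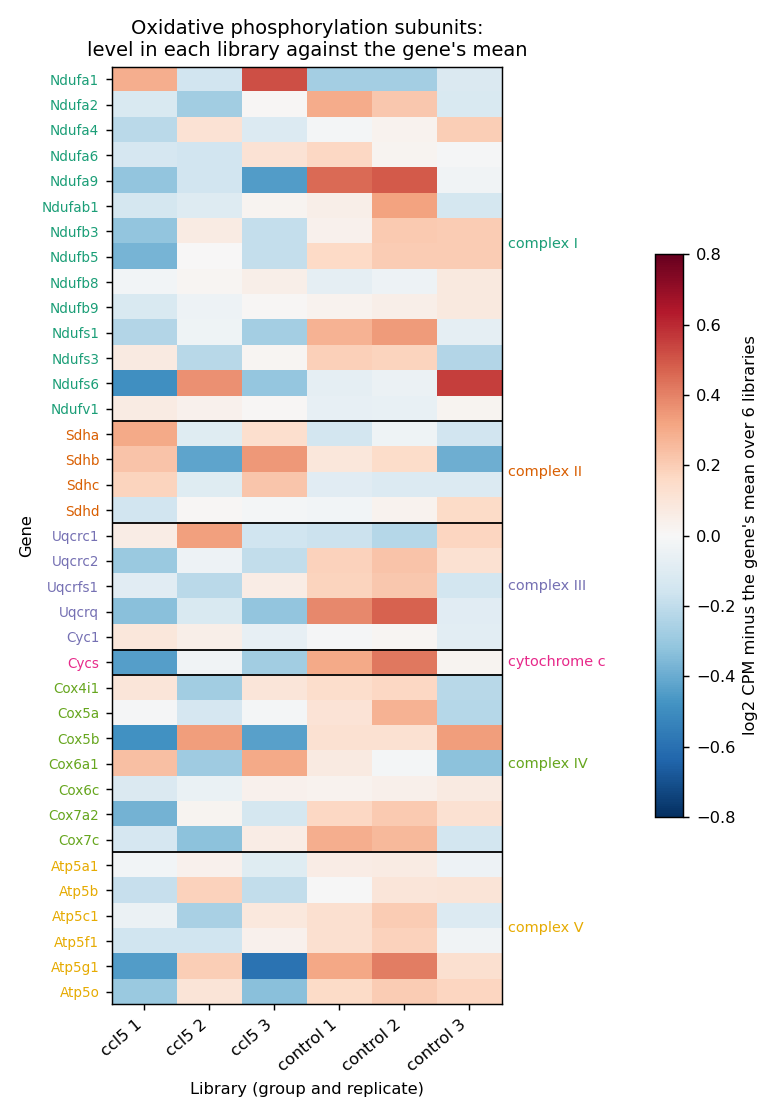
log2 CPM of each member in each library, minus the gene's mean over the 6 libraries (colour; red above and blue below the mean), with genes in rows by complex and libraries in columns. Control 1 and 2 lie above the gene's mean for 26 and 29 of 37 genes, while control 3 lies below it for 20. The libraries ccl5 1, 2 and 3 lie below it for 27, 22 and 19 genes. In complex II ccl5 1 and 3 are red for Sdha, Sdhb and Sdhc.

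With CCL5, most subunit genes of complexes I, III, IV and V and cytochrome c measured slightly lower and most of complex II slightly higher, and no member passed the test. Of the 37 genes, 28 had a negative log2 fold change (75.7%), beside 51% of all 12174 genes tested. The median log2 fold change over the members was -0.14, with a range from -0.62 for Ndufa9 to 0.46 for Ndufa1, and the median over all tested genes was -0.01. Without TMM scaling the median over all genes shifted by -0.16, and 33 members (89.2%) were then negative. The members' median stood 0.12 below that of all genes with either scaling. The size of this gap varied with the library left out. It was 0.265 without control replicate 3, 0.191 without ccl5 replicate 3, 0.074 without ccl5 replicate 2 and 0.075 without control replicate 2. With no filter on low counts it was 0.043, and among the primary transplant libraries alone 0.05.

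By edgeR's quasi-likelihood test with Benjamini-Hochberg adjustment 0 members passed an adjusted p of 0.05, beside 0 of all 12174 genes (0%), and the members' adjusted p ran from 0.365 to 0.944. Of the 37 members, 3 (Ndufa9, Uqcrq and Cycs) were lower at an unadjusted p under 0.05, 8.11% of them beside 4.67% of all tested genes. DESeq2 called 0 members, with a smallest adjusted p of 0.117, beside 1.08% of the 11689 genes to which it gave an adjusted p. All 3 ccl5 libraries lay below all 3 controls for 8 members (21.6%), beside 7.49% of all tested genes. All ccl5 libraries lay above all controls for 0 members, beside 8.27%. Members share libraries and can move together, so these shares do not count independent events. The separations are those after TMM scaling. Its factors were 0.846, 1.185 and 0.819 across ccl5 replicates 1 to 3, against 1.018, 1.019 and 1.174 across controls. Without TMM scaling ccl5 replicate 2 passed control replicate 1 for Ndufb5, Ndufb9, Cox7a2 and Atp5o, so their groups overlapped. The shares were not recounted without it.

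The absence of calls rested on 1 library. Without ccl5 replicate 2, edgeR called 6 members (16.2%), beside 26.2% of the 12581 genes then tested. The 5 lower ones were Atp5g1, Cox5b, Atp5o, Ndufb5 and Uqcrc2, with adjusted p from 0.0174 to 0.049, and Ndufa1 was higher with an adjusted p of 0.0267. That fit sets ccl5 replicates 1 and 3, the closely alike libraries without Y-linked counts, against the controls, so treatment and whatever else sets these libraries apart cannot be told apart there.

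**Figure D3:**
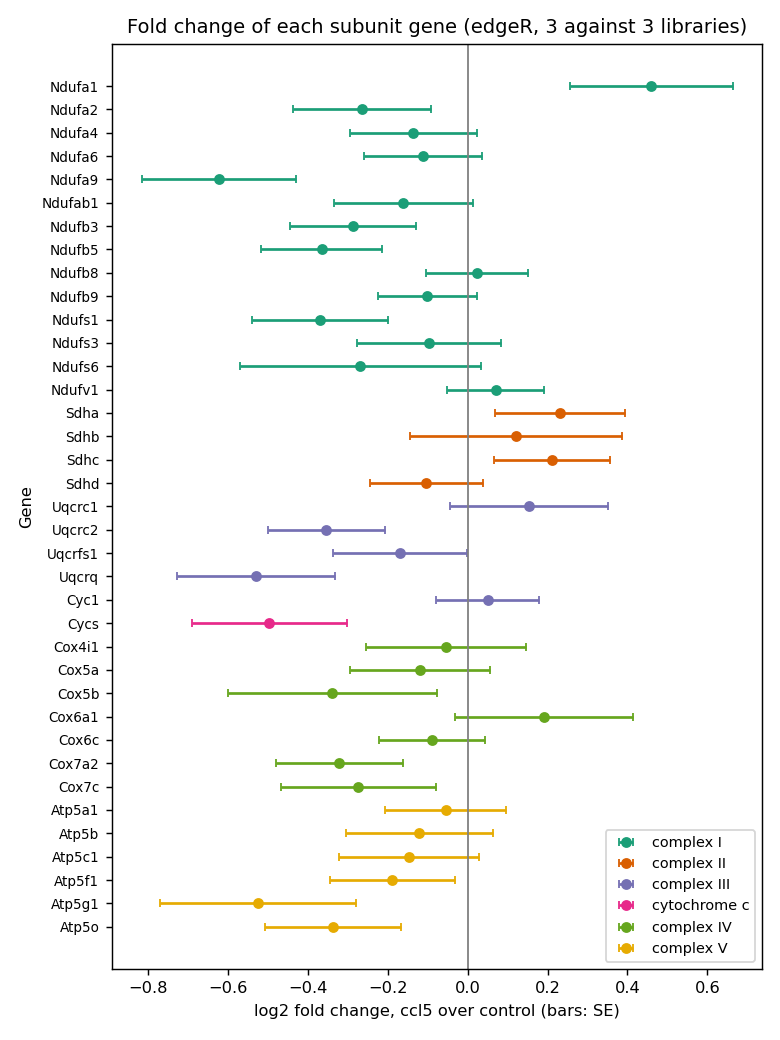
log2 fold change of ccl5 over control for each member (x axis; points are edgeR estimates from 3 against 3 libraries, bars are SE), coloured by complex. Points lie left of 0 for 28 of 37 genes, Ndufa9 is farthest left at -0.62 and Ndufa1 farthest right at 0.46.

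Among the 14 genes named as complex I, which takes electrons from NADH, 11 had a negative and 3 a positive log2 fold change, with a median of -0.15. Ndufa9, an accessory subunit where the matrix arm joins the membrane arm (chr6:126821863-126849144, mm10), measured 66.3, 74.0 and 60.5 CPM across ccl5 replicates 1 to 3, against 113, 116 and 80.8 CPM across control replicates 1 to 3. All ccl5 libraries were below all controls, and the groups came closest between ccl5 replicate 2 and control replicate 3. The log2 fold change of Ndufa9 was -0.62 (SE 0.19, adjusted p 0.365). Ndufb5, an accessory subunit of the membrane arm (chr3:32737063-32751559), measured 77.4, 100.3 and 87.9 CPM against 112, 115 and 115 CPM. After TMM scaling its groups did not overlap either, and the log2 fold change was -0.37 (SE 0.15, adjusted p 0.366).

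Ndufa1, an X-linked accessory subunit (chrX:37187589-37191238), went the other way. It measured 80.2, 58.8 and 93.7 CPM across ccl5 libraries, against 54.3, 54.3 and 60.4 CPM across controls, a log2 fold change of 0.46 (SE 0.20, adjusted p 0.374). ccl5 replicates 1 and 3 were the high libraries and ccl5 replicate 2 lay within the controls, so the groups overlapped. The third gene of this complex without overlap after TMM scaling was Ndufb9, an accessory subunit. It measured 89.6 ± 3.97 CPM across ccl5 libraries, against 96.1 ± 1.53 CPM across controls (SD, n = 3 each). The electron-carrying core subunits gave -0.37 for Ndufs1, with overlapping groups, and 0.07 for Ndufv1, while the core subunit Ndufs3 gave -0.10. Ndufab1, the mitochondrial acyl carrier protein, gave -0.16. The other negative log2 fold changes were those of Ndufb3 (-0.29), Ndufs6 (-0.27), Ndufa2 (-0.26), Ndufa4 (-0.14) and Ndufa6 (-0.11), and Ndufb8 gave 0.02. Ndufb8 and Ndufv1 turned negative without TMM scaling.

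Ndufa4, the highest of these genes per kilobase, measured 124, 156 and 133 CPM across ccl5 libraries, against 142, 147 and 165 CPM across controls, with ccl5 replicate 2 and control replicate 3 as the highest libraries. Summed over the 14 genes, the level was 1056, 1143 and 1132 CPM across ccl5 libraries, against 1251, 1270 and 1220 CPM across controls. The summed level of ccl5 libraries was 0.89 of that of controls and the groups did not overlap after TMM scaling. Without TMM scaling ccl5 replicate 2 passed control replicate 1, so the groups overlapped.

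Complex II, succinate dehydrogenase, had a positive log2 fold change in 3 of its 4 genes and a median of 0.17, which became -0.04 without TMM scaling, where Sdhb turned negative. Sdhc, a membrane anchor (chr1:171129157-171150603), measured 109, 89.7 and 112 CPM across ccl5 libraries, against 89.8, 89.0 and 89.0 CPM across controls, a log2 fold change of 0.21 (SE 0.15, adjusted p 0.526). Its controls were nearly level and ccl5 replicate 2 lay among them. Sdha, the flavoprotein that oxidizes succinate (chr13:74322255-74350240), measured 212, 160.3 and 188 CPM against 155, 168 and 155 CPM, with the same layout and a log2 fold change of 0.23 (SE 0.16, adjusted p 0.534).

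Sdhd, the other membrane anchor (chr9:50596340-50603849) and the highest gene of the complex per kilobase, measured 154, 173 and 169.8 CPM against 168, 175 and 191 CPM, a log2 fold change of -0.10 (SE 0.14). Its groups overlapped. Sdhb, the iron-sulfur subunit, gave 0.12 and paired across the labels: it measured 154, 97.9 and 167 CPM across ccl5 libraries, against 139.8, 145 and 100.1 CPM across controls, so ccl5 replicate 2 and control replicate 3 were the low libraries. In sum complex II measured 628, 521 and 637 CPM across ccl5 libraries, against 553, 576 and 534 CPM across controls, with the ccl5 libraries on both sides of the controls. The positive median rested on ccl5 replicates 1 and 3 and was -0.02 without both.

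In complex III, which passes electrons from ubiquinol to cytochrome c, 3 of 5 genes were negative, with a median of -0.17. Uqcrq, a small accessory subunit (chr11:53428948-53430831) and the highest of the complex per kilobase, measured 119, 138 and 120.2 CPM across ccl5 libraries, against 196, 208 and 141 CPM across controls. The groups did not overlap, but control replicate 3 stood much nearer to ccl5 replicate 2 than to the other controls. For Uqcrq the log2 fold change was -0.53 (SE 0.20, adjusted p 0.365). Uqcrc2, a core protein (chr7:120635189-120659523), measured 152, 182 and 163 CPM against 212, 219 and 203 CPM without overlap, a log2 fold change of -0.35 (SE 0.15, adjusted p 0.366).

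Uqcrfs1, the Rieske iron-sulfur protein (chr13:30540312-30545316), measured 108, 99.0 and 120.1 CPM against 130.4, 134 and 104 CPM, with overlap and a log2 fold change of -0.17 (SE 0.17). Uqcrc1, the other core protein, gave 0.15 and Cyc1, which carries the heme of cytochrome c1, gave 0.05. Cyc1 turned negative without TMM scaling. Uqcrc1 and Uqcrc2, which occur together in the complex, thus differed in sign, though neither passed the test. Summed over the 5 genes, levels were 578, 637 and 578 CPM across ccl5 libraries, against 716, 736 and 645 CPM across controls. The ratio was 0.855, without overlap after TMM scaling. Without TMM scaling ccl5 replicate 2 passed control replicate 1, so the groups overlapped.

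Cycs encodes cytochrome c, which also activates caspases when released from mitochondria (chr6:50562563-50566474). It measured 189, 252 and 211 CPM across ccl5 replicates 1 to 3, against 316, 344 and 260.1 CPM across control replicates 1 to 3. All ccl5 libraries were below all controls, with ccl5 replicate 2 and control replicate 3 only a small step apart. The log2 fold change was -0.50 (SE 0.19, adjusted p 0.365), and the mean of 217 ± 31.9 CPM with CCL5 stood against 307 ± 42.7 CPM across controls (SD, n = 3 each). Among the primary transplant libraries alone it was -0.18. Cyct, the cytochrome c of testis, had at most 0.0611 CPM in any library.

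For complex IV, cytochrome c oxidase, 6 of 7 genes were negative with a median of -0.12, which became 0.01 among the primary transplant libraries alone. Cox7a2, a small subunit (chr9:79755241-79759853), measured 111, 146 and 131 CPM across ccl5 libraries, against 162, 166 and 157 CPM across controls. After TMM scaling its groups did not overlap. The log2 fold change was -0.32 (SE 0.16, adjusted p 0.404). Cox7c, another small subunit (chr13:86044798-86046795), measured 162, 141 and 184 CPM against 217, 212 and 159.8 CPM, a log2 fold change of -0.27 (SE 0.19). Its groups overlapped, with ccl5 replicate 2 and control replicate 3 the lowest libraries.

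Cox5b, a zinc-binding subunit (chr1:36691487-36693388), had the opposite layout. It measured 71.6, 126 and 74.0 CPM against 109, 109 and 126 CPM, so that ccl5 replicates 1 and 3 were low and ccl5 replicate 2 was level with control replicate 3. For Cox5b the log2 fold change was -0.34 (SE 0.26, adjusted p 0.569). Cox4i1, the member with the highest level per kilobase, measured 408, 315 and 408 CPM across ccl5 libraries, against 419.6, 428 and 326 CPM across controls, a log2 fold change of -0.05 (SE 0.20) that turned positive in 3 of the 6 fits that each left out 1 library. Cox5a gave -0.12 and Cox6c -0.09. Cox6a1 gave 0.19, at 254, 176 and 265 CPM against 226, 212 and 171 CPM, and turned negative without TMM scaling. Complex IV summed to 1278, 1176 and 1352 CPM across ccl5 libraries, against 1432, 1444 and 1218 CPM across controls, with overlap.

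All 6 genes of complex V had a negative log2 fold change, with a median of -0.17. Atp5g1, which encodes the c subunit of the membrane rotor (chr11:96072793-96075694), measured 66.7, 104 and 60.2 CPM across ccl5 libraries, against 112, 121 and 99.2 CPM across controls. ccl5 replicates 1 and 3 were low, and ccl5 replicate 2 lay above control replicate 3. For Atp5g1 the log2 fold change was -0.53 (SE 0.24, adjusted p 0.389). Atp5o, the stalk protein that confers oligomycin sensitivity (chr16:91925223-91931630), measured 102, 135 and 99.2 CPM against 139, 144 and 141 CPM. After TMM scaling its groups did not overlap, and the log2 fold change was -0.34 (SE 0.17, adjusted p 0.412).

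Atp5f1, subunit b of the peripheral stalk (chr3:105942863-105960248), measured 265, 266 and 304 CPM against 324, 337 and 291 CPM, a log2 fold change of -0.19 (SE 0.16). Its groups overlapped at ccl5 replicate 3 and control replicate 3. Atp5b, the catalytic beta subunit and the member with the highest CPM, measured 481, 621 and 476 CPM against 545, 583 and 588 CPM, with ccl5 replicate 2 the highest library of all. The log2 fold change was -0.12 for Atp5b, -0.05 for Atp5a1 and -0.15 for Atp5c1, the gamma subunit of the rotating shaft. Summed levels of complex V were 1675, 1870 and 1702 CPM across ccl5 libraries, against 1946, 2027 and 1861 CPM across controls, and ccl5 replicate 2 passed control replicate 3 by little.

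Atp5g2 and Atp5g3 encode the same mature c subunit as Atp5g1. Atp5g2 measured 212, 183 and 234 CPM across ccl5 libraries, against 233, 239 and 201 CPM across controls, a log2 fold change of -0.10 (SE 0.17). Atp5g3 measured 125, 133 and 118 CPM against 127, 142 and 127 CPM, a log2 fold change of -0.07 (SE 0.14). Per kilobase Atp5g2 was the highest of these at 335, with Atp5g3 at 189.6 and Atp5g1 at 108. Whether Atp5g1 differed from its paralogs between groups was not tested.

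**Figure D4:**
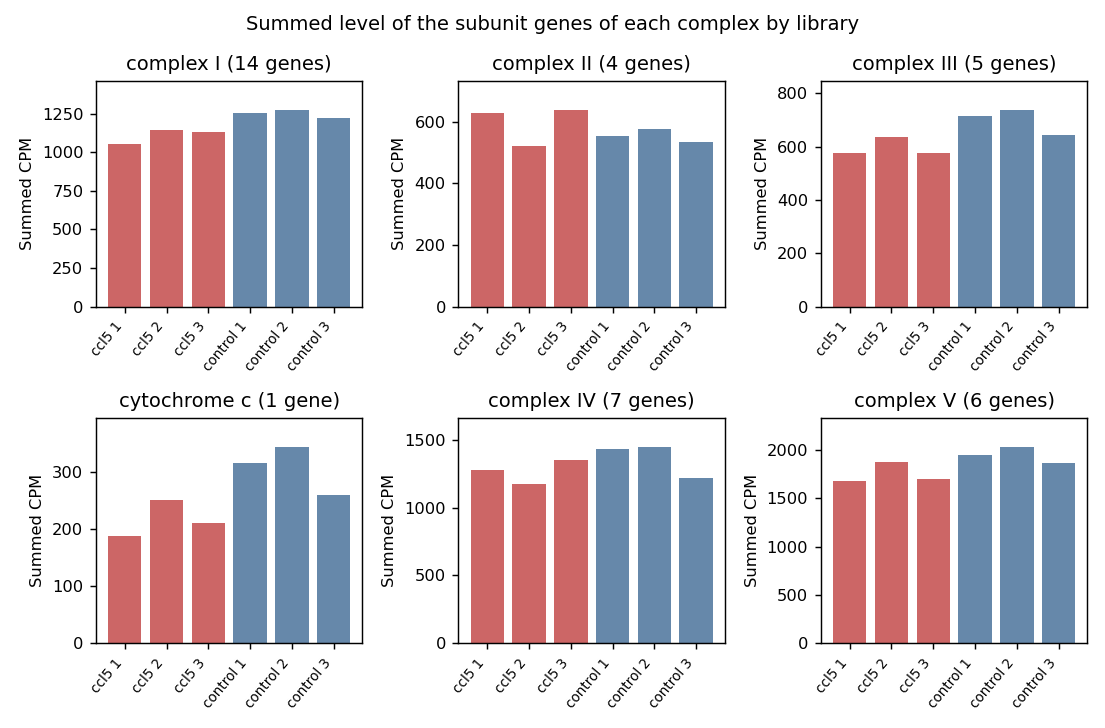
Summed CPM of the member genes of each complex (y axes, from 0) in each of the 6 libraries (ccl5 in red, control in blue). After TMM scaling complex I runs from 1056 to 1143 in ccl5 and from 1220 to 1270 in control libraries without overlap, while complex II is highest in ccl5 1 and 3. Without TMM scaling the complex I sums overlap.

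The share of each complex in the members' total does not depend on library scaling. Complex II made up 11.6%, 9.3% and 11.4% of the summed CPM of the 37 genes across ccl5 replicates 1 to 3, against 8.9%, 9.01% and 9.31% across control replicates 1 to 3. ccl5 replicates 1 and 3 were above the other libraries, and ccl5 replicate 2 was level with control replicate 3. Cycs made up 3.49%, 4.49% and 3.77% with CCL5 and 5.08%, 5.38% and 4.53% in controls, without overlap. Complex V held 31.6% ± 1.62 with CCL5 and 31.8% ± 0.569 under control conditions (SD, n = 3 each), and complex I held 19.5% to 20.4% against 19.9% to 21.3%, both with overlap. For complexes III and IV the shares also overlapped between groups.

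Since ccl5 replicate 2 and control replicate 3 were alike, the members were also counted by these libraries. They were the 2 lowest libraries for 9 members (24.3%), beside 28.2% of all tested genes, and 4 of these 9 belonged to complex IV. They were the 2 highest for 5 members (13.5%), beside 27.8% of all tested genes. Clear examples were Ndufs6, at 39.4, 71.2 and 44.6 CPM across ccl5 libraries, against 52.6, 53.5 and 81.0 CPM across controls, and Sdhb and Cox5b, whose values are given above. These 3 were chosen after their values were seen.

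The 3 libraries labelled as primary transplants allow a comparison without the tertiary transplant, although with 1 control. Between ccl5 replicate 2 and control replicate 3 the median log2 ratio over the members was -0.05, and 23 of 37 were lower with CCL5. Between ccl5 replicate 3 and the same control it was -0.04, and 21 were lower. The 2 ccl5 libraries parted strongly around similar medians. In replicate 3 the ratio ran from -0.86 for Ndufs6, -0.77 for Cox5b and -0.72 for Atp5g1 up to 0.63 for Ndufa1, 0.63 for Cox6a1 and 0.74 for Sdhb. In replicate 2 these 6 genes, chosen after their values were seen, lay between -0.18 and 0.07. By complex, the median ratio of ccl5 replicate 3 was 0.31 for complex II and 0.21 for complex IV, and -0.23 for complex III and -0.18 for complex V. That of ccl5 replicate 2 was -0.01, -0.05, -0.03 and 0 in the same order. Fitted over these 3 libraries, the members' median log2 fold change was -0.06, with 24 of 37 negative.

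**Figure D5:**
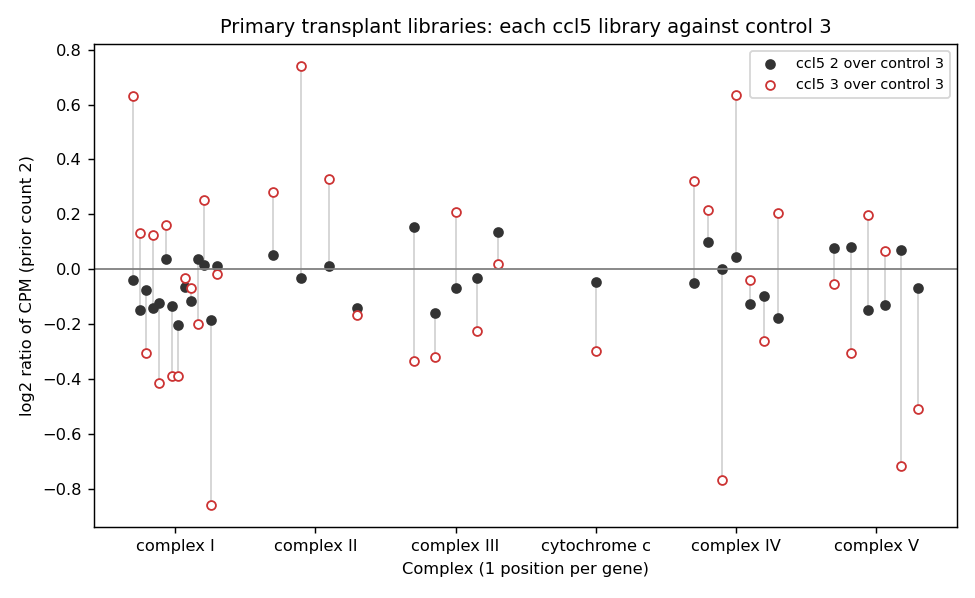
log2 ratio of CPM (prior count 2) of ccl5 replicate 2 (filled) and ccl5 replicate 3 (open) to control replicate 3, for each member (1 position per gene, joined by a line) by complex. Filled points stay near 0, while open points spread from -0.86 to 0.74.

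Of 40 other nuclear subunit genes of the same complexes, 39 were tested, and 32 were negative and 7 positive, with a median log2 fold change of -0.12. Of these, 0 passed the test, and 0 had an unadjusted p under 0.05. ccl5 replicate 2 and control replicate 3 were the 2 lowest libraries for 17 of the 39, beside 28.2% of all tested genes. They were the 2 highest for 5 of the 39, beside 27.8%. The median log2 ratio of ccl5 replicate 3 to control replicate 3 was 0.09. No test compared these genes with the 37 members. Ndufs4, an accessory subunit of complex I, had the smallest p, at 46.7, 55.2 and 56.4 CPM across ccl5 libraries, against 71.6, 77.3 and 57.4 CPM across controls, without overlap (log2 fold change -0.38, SE 0.17). Ndufb7, of the membrane arm, measured 59.5, 91.7 and 63.2 CPM against 95.9, 90.2 and 97.8 CPM, and its groups overlapped. Ndufs5 was at 0 counts in every library, and 95.1% of its exon bases are shared with BC002163 in the annotation used for overlaps, and whether its reads went uncounted was not tested.

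Of 10 tissue-specific isoforms and relatives, 4 were tested and all 4 were negative, and 0 passed the test. Cox7a2l, a factor of supercomplex assembly, was expressed in all libraries, at 312, 221 and 359 CPM across ccl5 libraries, against 476, 476 and 250.2 CPM across controls. Cox6a2, the heart and muscle form of Cox6a1, measured 7.98, 0.855 and 7.37 CPM against 11.6, 11.6 and 1.32 CPM. Cox6b2, a testis form, had the mirror layout, at 6.48, 32.3 and 6.01 CPM against 5.64, 6.34 and 35.6 CPM. For both, ccl5 replicate 2 stood with control replicate 3. Cox7a1, another muscle form, stayed between 1.16 and 3.25 CPM. Cox4i2, Cox8b, Ndufa4l2 and Cyct did not exceed 0.254 CPM, and Cox7b2 and Cox8c had 0 counts, which at 3 counts allows up to 0.16 to 0.273 CPM depending on the library.

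Assembly factors, which build the complexes without staying in them, were found for 31 of 42 symbols. Of 30 tested, 22 were negative and 8 positive with a median log2 fold change of -0.23, and 0 passed the test. Cox17, the copper chaperone of complex IV, measured 70.7, 87.0 and 71.5 CPM across ccl5 libraries, against 142, 143 and 96.1 CPM across controls, without overlap and with a log2 fold change of -0.74 (SE 0.21, adjusted p 0.365). Ndufaf1, an assembly factor of complex I, measured 7.62, 9.10 and 8.01 CPM against 11.98, 12.9 and 10.2 CPM, also without overlap (-0.50, SE 0.22). Sco2, also listed here, had 0 counts in every library, and 100% of its exon bases are shared with Ncaph2 and Tymp.

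Regulators of mitochondrial biogenesis were evenly divided, with 6 of 12 tested genes negative, a median of -0.02 and 0 past the test. Ppargc1a, the gene of PGC-1alpha, did not pass the filter on low counts and had at most 0.183 CPM in any library. Yy1, a transcription factor, measured 110.3, 77.0 and 106 CPM across ccl5 libraries, against 77.0, 70.0 and 71.9 CPM across controls, a log2 fold change of 0.42 (SE 0.18, adjusted p 0.370). Only ccl5 replicates 1 and 3 stood above the controls. Tfb1m, a methyltransferase of mitochondrial ribosomal RNA, measured 6.41, 9.04 and 6.83 CPM against 10.3, 9.70 and 9.35 CPM. After TMM scaling its groups did not overlap.

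The list for the TCA cycle, which supplies NADH and succinate, also held Pdha1 and Pdhb of pyruvate dehydrogenase. Of its 16 genes 13 were negative and 3 positive, with a median of -0.28 and 0 past the test. Ogdh and Dld encode parts of the same enzyme, 2-oxoglutarate dehydrogenase, and had log2 fold changes of opposite sign. Ogdh measured 180.4, 134 and 165 CPM across ccl5 libraries, against 96.9, 107 and 119.7 CPM across controls (0.57 on the log2 scale, SE 0.18). After TMM scaling all ccl5 libraries were above all controls for Ogdh. Dld measured 109.8, 125 and 118 CPM against 178, 176 and 133 CPM (-0.47, SE 0.17), with all ccl5 libraries below. Among 7 carriers, channels and the ATP synthase inhibitor, 6 were negative, with a median of -0.22 and 0 past the test. Vdac3, an outer membrane channel, measured 77.7, 113 and 83.0 CPM against 121, 141 and 120.4 CPM (-0.48, SE 0.19). After TMM scaling its groups did not overlap. Vdac2, its paralog, measured 263, 263 and 273 CPM against 386, 412 and 270.2 CPM (-0.42, SE 0.20), and control replicate 3 fell among the ccl5 libraries.

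Some values are limited by the counting. No strand option was set, and exons of Ndufa2, Ndufs1, Uqcrc2 and Atp5f1 overlap those of another gene over 4.91% to 14.1% of their bases. Processed pseudogenes are known for several members, Cycs among them, while reads that align to several places were counted at their primary alignment, and their part in the values was not tested.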

How the data were processed

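The deposited table held raw read counts per gene, made by the authors with featureCounts 1.5.1 which counted primary alignments against UCSC's mm10 annotation, per the file headers. The submitters' processing notes name DESeq2, TopHat, Bowtie and Trimmomatic without a role. Reads were 100-base single-end, per the labels. The ccl5 group came from the treatment labels and the control group from titles that begin with negative, 3 libraries each, with no pairing. Counts were scaled by TMM, filtered with filterByExpr (minimum count 10; 12174 genes left) and tested over all of them with edgeR 4.0.16's quasi-likelihood test (R 4.3.3). Tests were two-sided, p was adjusted by Benjamini-Hochberg and called under 0.05, and log2 fold changes divide ccl5 by control. DESeq2 1.42.0 was run on the same genes. The SE is the log2 fold change over the square root of F.

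The members and lists were chosen with earlier results of these data known. Per-library values are given for each complex's 3 genes of smallest p, Cycs, the highest gene per kilobase of each complex, the extreme fold changes, the isoforms and paralogs, and up to 2 genes of each other list. Sdhb, Cox6a1, Ndufs6 and Nrf1 were added after their values were seen. Sums by complex weight genes by their counts. Exon overlaps between genes used the exon coordinates deposited with the counts. Promoter windows came from RefSeq on GRCm38.p6, and annotated exons within them from GENCODE M21. The test was checked on simulated counts with 200 changed genes. Those libraries were drawn independently, without the pairing across labels seen here, so the check does not cover the test under that pairing. Alternatives were other scalings and filters, DESeq2's test, a threshold of 0.1, leaving out each library, primary transplant libraries only, and leaving out ccl5 replicates 1 and 3.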

Additional observations from a re-analysis of the deposited data

How the results depend on the processing

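Under the alternatives, 80 medians moved by less than the spread between replicates and 11 by more, while the count of members called stayed at 0 in 13 and became 6 in 1. That spread was wide beside the medians, so a move smaller than it does not show a stable median. For complex IV it was 0.137, and the change from -0.12 to 0.01 among the primary transplant libraries counted as smaller. Without TMM scaling the median log2 fold change was -0.29 over all members, -0.31 for complex I, -0.038 for complex II, -0.35 for complex III, -0.29 for complex IV and -0.35 for complex V, with a shift of -0.16 in the median over all genes. Signs turned for 5 members there, for 10 with the primary transplant libraries only and for 7 without both ccl5 replicates 1 and 3. When single libraries were left out, Cox4i1 turned positive in 3 of 6 fits and Sdhb negative in 2, and Ndufb8 negative in 1. With the primary transplant libraries only, complex I gave -0.077 and Cycs -0.18. Without both ccl5 replicates 1 and 3, complex II gave -0.021 and Cycs -0.29. Leaving out each library in turn gave 0 to 6 members past the threshold, the 6 without ccl5 replicate 2, a median of -0.21 to -0.11 over all members and of 0.071 to 0.316 for complex II: 0.071 without ccl5 replicate 3, 0.316 without ccl5 replicate 2, 0.098 without ccl5 replicate 1 and 0.099 without control replicate 3. The -0.21 over all members was without control replicate 3. For complex III the range was -0.265 (without control replicate 3) to -0.100 (without ccl5 replicate 2), with -0.105 without control replicate 2, and for complex IV -0.238 to -0.082 without the same libraries. The cause of these changes was not tested. No paired analysis was possible because the labels give no numbers that link libraries across groups. With 3 libraries a group and a median SE of 0.17 for members, changes of the size of these medians were not detectable for single genes. Transplant is confounded in part with treatment, and the 3 alike pairs of libraries leave few independent samples.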
